A study of Mus musculus with 9 samples.

Results

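The guanylate-binding proteins were followed here as 10 mouse genes, Gbp2 to Gbp11, taken by symbol from tables of 55401 genes, and 6 of them had counts and were tested among 18514 genes. The tissue was gastrocnemius, which lies in the calf, taken from wild-type mice of the FVB strain, 2 to 3 months old, 7 weeks after that muscle had been injected. AAV-GFP-MBNL1∆ libraries came from muscle injected with an adeno-associated virus vector named for green fluorescent protein and a shortened MBNL1, a splicing factor that binds RNA and that the series title describes as a decoy for expanded CUG repeats. AAV-GFP libraries came from muscle given the vector with green fluorescent protein alone, and saline libraries from muscle injected without a vector. Each group held 3 libraries, and the labels name no other allele or treatment in any group. The labels do not give the promoters, serotype or dose of the vectors, nor whether each library is a separate animal, so a p-value speaks for the spread among libraries, which may be technical.

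Guanylate-binding proteins are large GTPases of the dynamin superfamily that cells make in quantity when interferons, above all interferon gamma, act on them. They gather on the vacuoles of intracellular parasites and bacteria, and on bacteria free in the cytosol, where they help to break membranes and to bring microbial products to inflammasomes. Some carry a lipid at the C-terminus that anchors them in membranes, and muscle fibres as well as leukocytes and endothelial cells can make them.

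The genes lie in 2 clusters (GRCm38 coordinates, GENCODE M21 annotation). On the plus strand of chromosome 3 stand Gbp5 (142493978 to 142522344), Gbp7 (142530342 to 142550149), Gbp3 (142560026 to 142573209) and Gbp2 (142620602 to 142638008). On the minus strand of chromosome 5 stand Gbp8 (105014150 to 105139540), Gbp9 (105077630 to 105139539), Gbp4 (105115767 to 105139586), Gbp10 (105215699 to 105239533), Gbp6 (105270702 to 105293698) and Gbp11 (105323042 to 105346472). Gbp11 is annotated as a polymorphic pseudogene, a gene that is intact in some strains and broken in others, and the other members as protein-coding.

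Promoter sequences of RefSeq (build GRCm38.p6) were held for Gbp2, Gbp3, Gbp5 and Gbp7, the whole chromosome 3 set of members, and not for Gbp4, Gbp6, Gbp8, Gbp9, Gbp10 and Gbp11. They are shown because interferon acts on genes of this kind through short elements near the start. In AAV-GFP muscle these 4 genes had the same library order as Gbp8 and Gbp11, and a link to such elements was not tested. Each line gives the 250 bases before the start that RefSeq annotates, 5′ to 3′ on the plus strand, with capitals marking each match to the core of an interferon-stimulated response element (ISRE), TTTC, any 2 bases and TTTC again (GAAA, any 2 bases and GAAA on the other strand), or to a gamma-activated site (GAS), the palindrome TTCNNNGAA. The positions are Gbp2 at chr3:142620413-142620662, Gbp3 at chr3:142559794-142560043 (the first of its 2 entries), Gbp5 at chr3:142496684-142496933 and Gbp7 at chr3:142530086-142530335. The RefSeq start lies 2956 bases inside the GENCODE body of Gbp5, 61 bases inside that of Gbp2 and 18 bases inside that of Gbp3.
Gbp2: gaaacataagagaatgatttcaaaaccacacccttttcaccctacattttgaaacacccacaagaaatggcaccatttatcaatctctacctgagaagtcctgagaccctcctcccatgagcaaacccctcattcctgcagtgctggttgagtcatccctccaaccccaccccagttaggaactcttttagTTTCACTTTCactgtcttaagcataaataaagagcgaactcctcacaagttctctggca
Gbp3: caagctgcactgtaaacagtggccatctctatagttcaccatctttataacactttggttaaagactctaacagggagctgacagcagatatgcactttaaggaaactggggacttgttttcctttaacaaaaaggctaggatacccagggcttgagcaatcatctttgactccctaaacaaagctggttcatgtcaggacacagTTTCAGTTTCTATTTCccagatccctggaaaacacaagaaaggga
Gbp5: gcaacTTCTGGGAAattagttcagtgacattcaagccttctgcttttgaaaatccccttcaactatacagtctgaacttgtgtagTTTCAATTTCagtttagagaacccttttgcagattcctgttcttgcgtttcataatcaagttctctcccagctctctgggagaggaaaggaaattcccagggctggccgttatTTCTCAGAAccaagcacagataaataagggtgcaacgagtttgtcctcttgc
Gbp7: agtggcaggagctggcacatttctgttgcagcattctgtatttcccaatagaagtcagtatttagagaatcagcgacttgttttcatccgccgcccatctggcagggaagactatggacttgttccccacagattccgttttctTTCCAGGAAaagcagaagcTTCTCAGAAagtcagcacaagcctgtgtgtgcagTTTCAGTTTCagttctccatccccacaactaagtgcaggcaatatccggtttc

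An ISRE core was found in each of the 4 windows. Its first base stood 59 bases before the RefSeq start in Gbp2, 53 bases before it in Gbp7 and 165 bases before it in Gbp5. In Gbp3, 2 cores that overlap each other began 45 and 39 bases before the start, and the window of the second Gbp3 entry held none. GAS letters were found in Gbp5, 245 and 52 bases before the start, and in Gbp7, 106 and 87 bases before it. Of all 32851 promoter windows of this length, 2.98% held the ISRE core and 7.02% held the GAS letters. These are matches of letters, and binding was not measured.

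Gbp4, Gbp6, Gbp9 and Gbp10, all in the chromosome 5 cluster, were listed at 0 counts in every one of the 9 libraries. Among these 4, mouse Gbp6 and Gbp10 are known for limiting the growth of mycobacteria in macrophages. The 4 genes are also those whose bodies, from first to last annotated base, lie almost wholly inside another gene of the same strand. Gbp9 had 100% and Gbp4 99.8% of its body within Gbp8 or each other, and Gbp10 and Gbp6 each had 100% (to 3 significant digits) within the predicted gene Gm43302. Over the table, 452 of 454 protein-coding genes (99.6%) whose whole body lies within genes of the same strand had no count in any library. Gbp9 and Gbp10 belong to that set. Gbp4 and Gbp6 had over 99% but not all of the body so covered, and 128 of 164 genes of that kind were at 0, a lower share. The share at 0 was 22.4% of 700 genes that lie wholly within genes of the opposite strand, and 24.6% of 11828 genes that no other gene overlaps. Genes that muscle and other cells use at high levels were among those at 0, such as Cox4i1, a subunit of the respiratory chain, and Map1lc3b, an autophagy gene, both within Gm20388. Given these shares, the 4 zeros are not read as a lack of transcripts, and no level or fold is given for these members. These control genes were chosen after their values were seen.

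Gbp8 shared 49.4% of its body with Gbp9 and Gbp4, but 98.2% of its exon bases lay outside them, and it had 9873 counts over the 9 libraries. Gbp7 had 42436 counts and Gbp2 39250, with 88.7% and 100% of their exon bases outside other genes of the strand. The part of Gbp7 that overlaps another gene is covered by Gm43802, whose transcripts hold 10% of the 75-base words of Gbp7. Gbp3 had 16607 counts, Gbp5 11964 and Gbp11 2181. Words of 75 bases found also in transcripts of other genes made up 10.3% of those of Gbp11 and 8.04% of those of Gbp8, so some of their reads may not be told apart from those of relatives. For Gbp3, Gbp2 and Gbp5 the share was 2.06%, 0.955% and 0.578%.

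**Figure D1:**
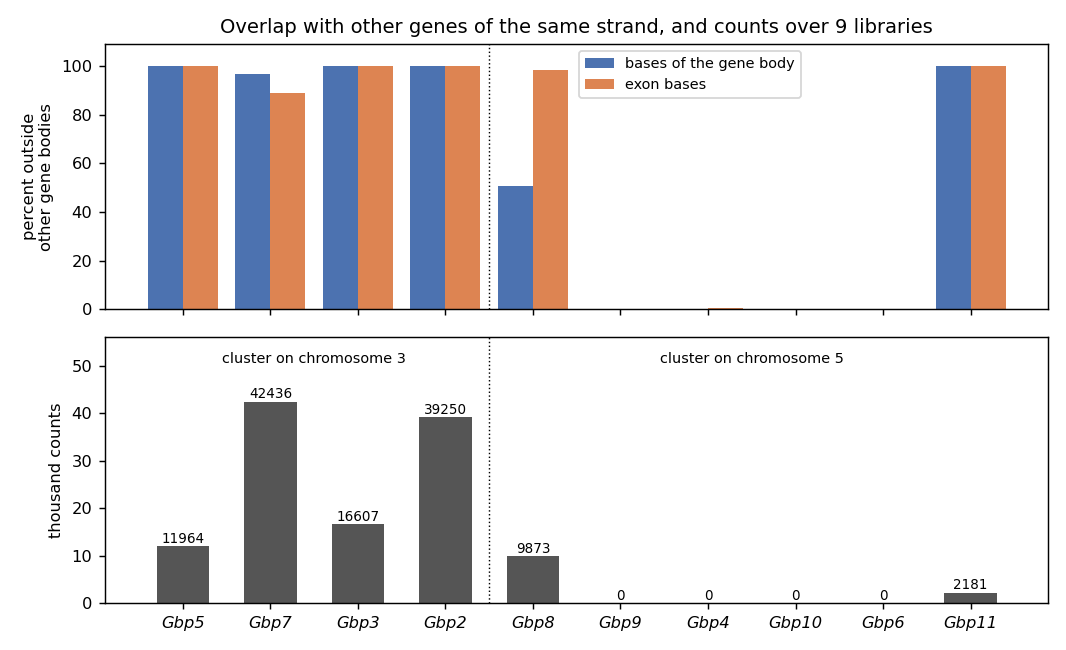
Upper panel: percent of each gene's body (blue) and of its exon bases (orange) that lies outside other genes of the same strand, for the 10 Gbp genes in genome order within each cluster. Lower panel: counts summed over the 9 libraries, with the count above each bar. The 4 genes with under 1% of their bases to themselves are the 4 listed at 0 counts.

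All 6 measured members were at their highest in the AAV-GFP libraries, and in AAV-GFP-MBNL1∆ muscle they stood at levels that overlapped those of saline muscle. Values are counts per 1000000 (CPM) on library sizes scaled by the TMM method, for replicates 1, 2 and 3 in that order. Gbp2, a lipid-anchored member that in mice gathers on the vacuole of Toxoplasma, was at 29.4, 26.4 and 13.9 CPM in AAV-GFP-MBNL1∆ muscle, at 106, 276 and 43.7 CPM in AAV-GFP muscle, and at 12.4, 16.0 and 23.1 CPM in saline muscle. The lowest AAV-GFP library lay above all 6 libraries of the other groups, which mixed with each other. In bulk muscle, more cells that make a transcript and more of it per cell cannot be told apart.

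Gbp7, which in mouse macrophages takes part in assembling the oxidase that makes microbicidal oxygen radicals, was at 33.2, 27.9 and 21.7 CPM in AAV-GFP-MBNL1∆ muscle, at 152, 267 and 47.9 CPM in AAV-GFP muscle, and at 13.0, 12.3 and 22.3 CPM in saline muscle. Saline replicate 3 alone reached the range of the AAV-GFP-MBNL1∆ libraries. Gbp3, whose human counterpart joins the coat that these proteins form on cytosolic bacteria, was at 9.35, 10.3 and 4.36 CPM in AAV-GFP-MBNL1∆ muscle, at 45.2, 119 and 22.0 CPM in AAV-GFP muscle, and at 4.29, 5.83 and 11.2 CPM in saline muscle. Here saline replicate 3 was above all the AAV-GFP-MBNL1∆ libraries.

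Gbp5, another lipid-anchored member, known in mice for promoting inflammasome activation, was at 7.40, 8.58 and 4.21 CPM in AAV-GFP-MBNL1∆ muscle, at 34.5, 75.2 and 16.0 CPM in AAV-GFP muscle, and at 5.31, 6.44 and 11.0 CPM in saline muscle. Saline replicate 3 was again above the 3 AAV-GFP-MBNL1∆ libraries, yet below the lowest AAV-GFP library. Gbp8 was at 4.51, 5.53 and 3.13 CPM in AAV-GFP-MBNL1∆ muscle, at 23.7, 79.9 and 8.17 CPM in AAV-GFP muscle, and at 2.57, 2.53 and 4.34 CPM in saline muscle. Gbp11 was at 1.22, 1.16 and 0.449 CPM in AAV-GFP-MBNL1∆ muscle, at 6.97, 15.5 and 2.35 CPM in AAV-GFP muscle, and at 1.28, 0.893 and 0.468 CPM in saline muscle. Both chromosome 5 genes were again above every other library in the 3 AAV-GFP libraries.

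**Figure D2:**
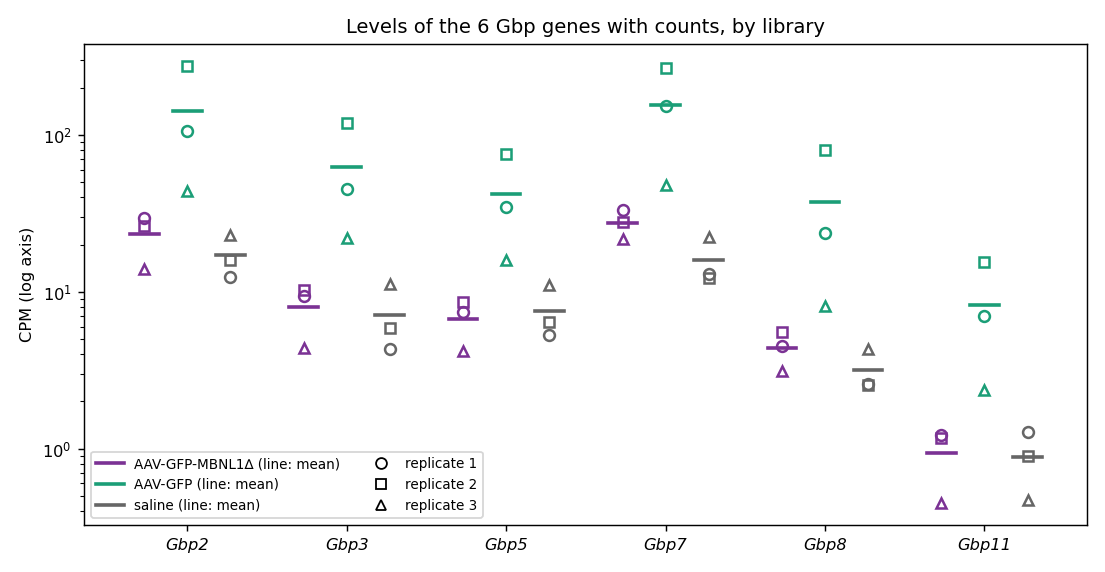
CPM of the 6 Gbp genes with counts on a log axis, for AAV-GFP-MBNL1∆ (purple), AAV-GFP (green) and saline (grey) libraries. Each symbol is 1 library (circle, square and triangle for replicates 1, 2 and 3) and each line a group mean. For every gene the 3 AAV-GFP libraries lie above the other 6, with replicate 2 highest and replicate 3 lowest.

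The AAV-GFP libraries differed widely among themselves. All 6 members had the same order there, with replicate 2 above replicate 1 and replicate 3 lowest, and replicate 2 exceeded replicate 3 by 4.7 times for Gbp5 and by up to 9.79 times for Gbp8. The summed level of the members was 140 to 833 CPM in AAV-GFP muscle, against 47.8 to 85.1 CPM in AAV-GFP-MBNL1∆ muscle and 38.8 to 72.3 CPM in saline muscle. Relative to the saline mean the sum was 7.12, 16.1 and 2.71 times as high in AAV-GFP replicates 1, 2 and 3. In saline muscle, replicate 3 was above the mean of replicates 1 and 2 for 5 members, by 1.63 to 2.21 times, whereas Gbp11 stood at 0.43 times that mean.

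Per kilobase of annotated exon, which allows levels to be set against each other, Gbp2 was above Gbp7, Gbp7 above Gbp3 and Gbp11 last in each of the 9 libraries. In AAV-GFP-MBNL1∆ muscle the levels were 9.24 ± 3.26 CPM per kb for Gbp2, 4.92 ± 1.02 for Gbp7, 2.45 ± 0.973 for Gbp3, 1.28 ± 0.35 for Gbp8, 1.01 ± 0.341 for Gbp5 and 0.351 ± 0.159 for Gbp11 (SD, n = 3). AAV-GFP muscle had 56.3 ± 47.8 CPM per kb for Gbp2, 27.7 ± 19.5 for Gbp7, 19.0 ± 15.5 for Gbp3, 10.8 ± 11.0 for Gbp8, 6.31 ± 4.57 for Gbp5 and 3.08 ± 2.48 for Gbp11 (SD, n = 3). In AAV-GFP muscle the ranges of mean ± SD overlapped between all neighbours in this order. In saline muscle they were 6.81 ± 2.16 for Gbp2, 2.83 ± 0.993 for Gbp7, 2.18 ± 1.11 for Gbp3, 1.14 ± 0.451 for Gbp5, 0.914 ± 0.301 for Gbp8 and 0.328 ± 0.152 CPM per kb for Gbp11 (SD, n = 3). There the ranges of Gbp2 and Gbp7, and those of Gbp8 and Gbp11, did not overlap, and the other neighbours did. Gbp8 and Gbp5 traded places between libraries, and Gbp5 moved to 11.2 CPM per kb in AAV-GFP muscle when its longest transcript replaced all its exon bases. Reads over introns, if they were counted, are part of these values, which was not tested.

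The first comparison sets muscle given the control vector against saline muscle. AAV-GFP muscle had 8.27 times the saline level of Gbp2 (142 ± 120 CPM in AAV-GFP and 17.1 ± 5.44 CPM in saline muscle, SD, n = 3 each), a log2 fold change of 3.05 ± 0.65 (SE). The log2 fold change was 3.13 ± 0.67 for Gbp3, 2.47 ± 0.57 for Gbp5, 3.29 ± 0.58 for Gbp7, 3.57 ± 0.76 for Gbp8 and 3.24 ± 0.72 for Gbp11. None of the 6 passed an adjusted p of 0.05 in edgeR's quasi-likelihood test (adjusted p = 0.0841, and 0.0855 for Gbp5), against 0.0% of all genes tested. All 6 had an unadjusted p under 0.05 in that test, against 15.6% of all genes in the higher direction, and all 6 had AAV-GFP libraries above every saline library, against 14.7% of all genes.

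The values and the call for this comparison changed with the libraries and the tool. Without AAV-GFP replicate 2, the library with the highest levels, the log2 fold changes were 2.1 ± 0.51 for Gbp2, 2.21 ± 0.58 for Gbp3, 1.71 ± 0.48 for Gbp5, 2.62 ± 0.54 for Gbp7, 2.31 ± 0.50 for Gbp8 and 2.38 ± 0.61 for Gbp11 (SE), and 0 of the 6 were called (adjusted p = 0.0945 to 0.177, edgeR). Without AAV-GFP replicate 3, edgeR called all 6 members higher (adjusted p = 0.00156 to 0.00523), against 15.3% of all genes. DESeq2 and limma-voom with a weight per library also called all 6, against 8.74% and 16.6% of all genes higher, and limma-voom without weights called 0 (0.0% of all genes).

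The next comparison sets the MBNL1∆ vector against saline. No member passed the test, against 4.76% of all genes called higher and 4.6% called lower (adjusted p = 0.397 for Gbp7 and up to 0.951 for Gbp11, edgeR). At an unadjusted p under 0.05 the count was also 0, against 13.1% of all genes higher and 12.9% lower. DESeq2 and limma-voom, with and without library weights, also called 0. The log2 fold changes were 0.44 ± 0.60 for Gbp2, 0.17 ± 0.64 for Gbp3, -0.17 ± 0.55 for Gbp5, 0.80 ± 0.54 for Gbp7, 0.48 ± 0.71 for Gbp8 and 0.10 ± 0.70 for Gbp11 (SE). These SEs rest on the spread of all 9 libraries and leave room for changes of either sign in each of the 6. For Gbp7, other fits gave smaller SEs, also without a call. Its log2 fold change was 0.78 ± 0.28 with only the 2 groups compared fitted (SE, adjusted p = 0.0916, edgeR). With library weights it was 0.9 ± 0.33 (SE, adjusted p = 0.0635, limma-voom). The libraries of the groups overlapped for each of the 6, whereas 22.7% of all genes were higher and 20.0% lower without overlap.

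Set against AAV-GFP, all 6 members fell in AAV-GFP-MBNL1∆ muscle (adjusted p = 0.0194 to 0.0278, edgeR), against 10.3% of all genes called lower. Gbp2 averaged 23.3 ± 8.2 CPM in AAV-GFP-MBNL1∆ and 142 ± 120 CPM in AAV-GFP muscle (SD, n = 3 each), 0.164 times the level. The log2 fold change was -2.61 ± 0.63 for Gbp2, -2.96 ± 0.67 for Gbp3, -2.64 ± 0.57 for Gbp5, -2.49 ± 0.56 for Gbp7, -3.09 ± 0.74 for Gbp8 and -3.14 ± 0.72 for Gbp11 (SE). Every AAV-GFP-MBNL1∆ library was below every AAV-GFP library for each of the 6, against 19.2% of all genes.

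These calls used the spread of all 9 libraries. None of the 6 was called when only the libraries compared were fitted (2.07% of all genes called lower) or when no filter on low counts was used (3.7%). The same held without AAV-GFP-MBNL1∆ replicate 1, 2 or 3 (2.91%, 2.59% and 1.42% of all genes; adjusted p up to 0.105, edgeR). Without AAV-GFP replicate 2, 3 of the 6 were called, Gbp5, Gbp8 and Gbp11 (9.42% of all genes), and the log2 fold changes were -1.67 for Gbp2, -2.07 for Gbp3, -1.90 for Gbp5, -1.84 for Gbp7, -1.86 for Gbp8 and -2.30 for Gbp11. Without saline replicate 2, 5 were called, all but Gbp2 (4.5%). Xist, expressed from the inactive X chromosome of females, was at 0.0182 to 0.0902 CPM in AAV-GFP-MBNL1∆ muscle, at 106 to 136 CPM in AAV-GFP muscle and at 105 to 130 CPM in saline muscle. Ddx3y, a gene of the Y chromosome, was at 82.7 to 84.6 CPM in AAV-GFP-MBNL1∆ muscle, at 0.487 to 2.58 CPM in AAV-GFP muscle and at 0.409 to 0.693 CPM in saline muscle. The MBNL1∆ vector and the sex of the mice cannot be told apart in either comparison that holds it. The 3 comparisons share libraries, so their fold changes are not independent of each other.

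**Figure D3:**
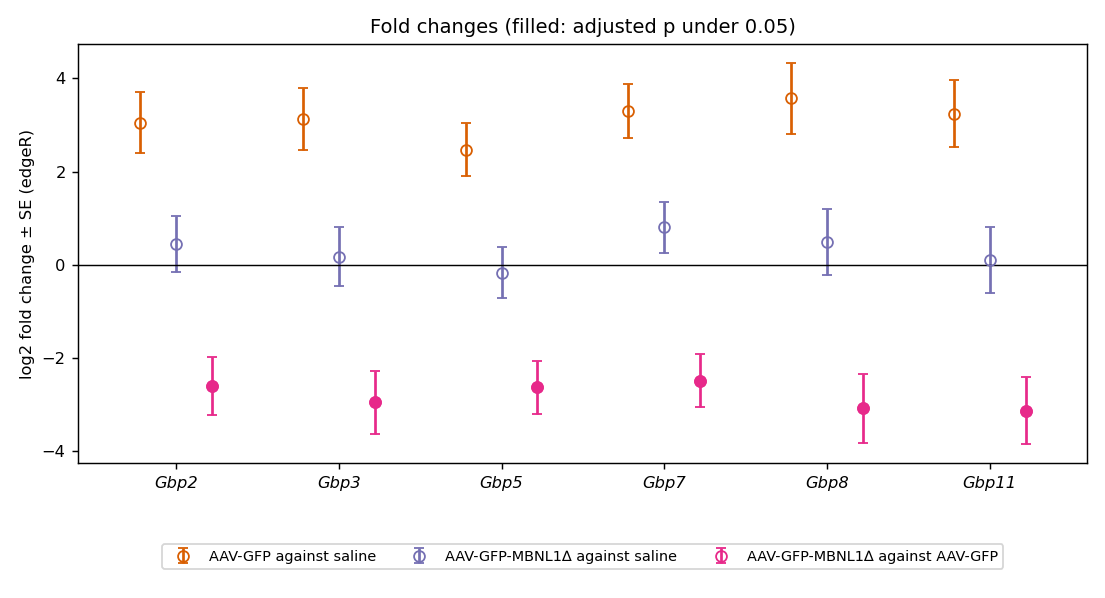
Log2 fold change with its SE (edgeR) of the 6 Gbp genes in the 3 comparisons, filled where the adjusted p was under 0.05. Changes lie between 2.47 and 3.57 for AAV-GFP against saline and between -0.17 and 0.8 for AAV-GFP-MBNL1∆ against saline. For AAV-GFP-MBNL1∆ against AAV-GFP they lie between -3.14 and -2.49, and all 6 are filled there.

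Between AAV-GFP and saline muscle the make-up of the family changed less than its level. Between AAV-GFP-MBNL1∆ and saline muscle the summed level overlapped, whereas the shares of Gbp5 and Gbp7 did not. Gbp7 and Gbp2 together gave most of the summed CPM in each library, with Gbp2 at 29.2% to 34.6% in AAV-GFP-MBNL1∆, 28.7% to 33.1% in AAV-GFP and 31.9% to 36.3% in saline muscle. Gbp7 made up 35.0% to 45.4% in AAV-GFP-MBNL1∆, 32.1% to 41.3% in AAV-GFP and 28.0% to 33.5% in saline muscle. Gbp5 gave a lower share in both vector groups, 8.7% to 10.8% in AAV-GFP-MBNL1∆ and 9.04% to 11.4% in AAV-GFP muscle, against 13.7% to 15.2% in saline muscle. Set against Gbp2, Gbp5 stood at 0.252 to 0.325 in AAV-GFP-MBNL1∆, 0.273 to 0.366 in AAV-GFP and 0.403 to 0.475 in saline muscle, with no overlap between either vector group and saline. These shares were noticed after the values were seen and were not tested.

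**Figure D4:**
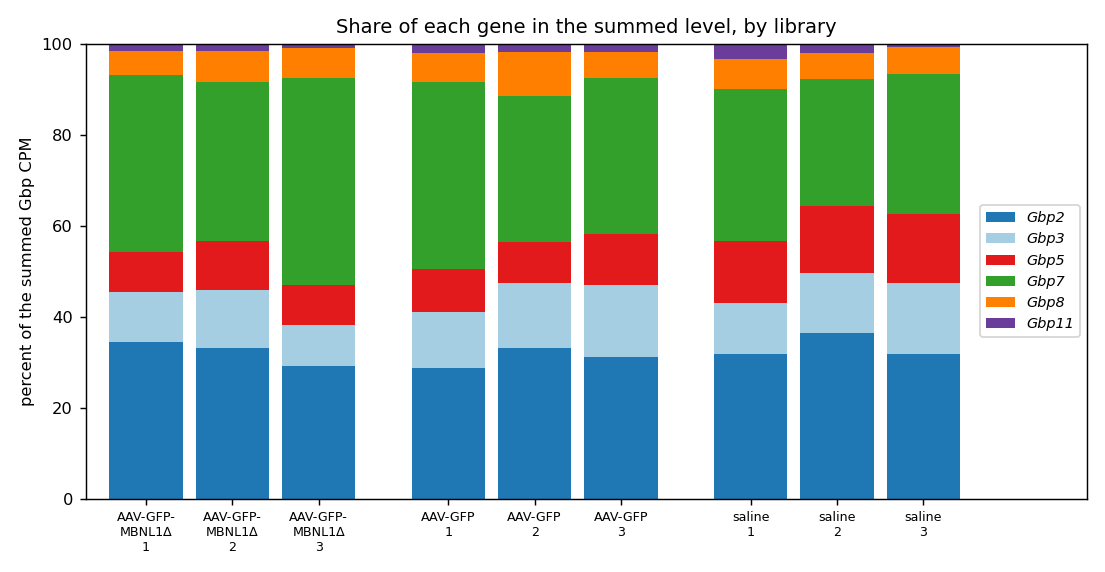
Share of each Gbp gene in the summed CPM of the 6, in percent, for each library, with AAV-GFP-MBNL1∆ on the left, AAV-GFP in the middle and saline on the right. The Gbp5 band (red) is between 13.7% and 15.2% in the saline libraries and at most 11.4% in the other 6.

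Interferon gamma signals through its receptor and the kinases JAK1 and JAK2, and IRF1 acts on Gbp genes. The ligand gene Ifng had 24 counts in AAV-GFP-MBNL1∆, 187 in AAV-GFP and 3 in saline libraries, summed over 3 libraries each. In AAV-GFP replicates 1, 2 and 3 it was at 0.534, 1.82 and 0.111 CPM. Replicate 3 lay within the AAV-GFP-MBNL1∆ range of 0.0752 to 0.236 CPM, and saline libraries were at 0.0289 CPM or less. Of 20 genes of this pathway 19 were tested, and in AAV-GFP against saline 0 were called, where 0.0% of all genes were called. Their median log2 fold change was 1.18 beside -0.01 over all genes. Ciita, the master switch of MHC class II genes, was 5.14 ± 0.99 (SE) higher on the log2 scale and missed the threshold (adjusted p = 0.0841, edgeR). The receptor gene Ifngr1 was at 38.5 to 69.3 CPM in AAV-GFP muscle and 36.2 to 41.7 CPM in saline muscle, which overlap. Irf8 was listed at 0 and lies within Gm20388, as above.

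Against AAV-GFP, 7 of these 19 genes were lower and 1 higher in AAV-GFP-MBNL1∆ muscle, beside 10.3% of all genes lower and 10.8% higher, with a median of -0.79 beside -0.06 over all genes. Stat2 and Irf9, which act in the type I interferon response, fell by 1.66 and 1.45 on the log2 scale. Irf1, Socs1, Socs3 and Nlrc5 were also called lower. Jak2 was the gene called higher, at 86.9 ± 2.66 CPM in AAV-GFP-MBNL1∆ and 62.5 ± 2.89 CPM in AAV-GFP muscle (SD, n = 3 each). Against saline, Jak2 was also higher (log2 fold change 0.41) and Ifngr2, the second receptor chain, lower (-0.60), 1 of 19 in each direction, which is near the 4.76% of all genes higher and 4.6% lower. The median over the list was 0.28 beside 0.02.

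The immunity-related GTPases (IRGs) act on the same vacuoles as the guanylate-binding proteins, and 5 of 7 were tested. In AAV-GFP against saline the median log2 fold change of these 5 was 4.22 beside -0.01 over all genes. There 0 were called, against 0.0% of all genes. In AAV-GFP-MBNL1∆ against AAV-GFP all 5 were lower (Irgm1, Irgm2, Iigp1, Gm12250 and Tgtp2), beside 10.3% of all genes, with a median of -3.46 beside -0.06. Iigp1, an effector that coats the vacuole of Toxoplasma in mice, stayed above saline in every AAV-GFP-MBNL1∆ library, at 33.6 to 100 CPM in AAV-GFP-MBNL1∆ and 8.33 to 31.8 CPM in saline muscle, without passing the test (adjusted p = 0.158, edgeR). It was the 1 of 5 higher without overlap, near the 22.7% of all genes. Igtp had 8 counts in all and lies to 99.2% within Irgm2, and Tgtp1, a close copy of Tgtp2, had 7, so neither was tested.

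Gbp2b, a neighbour of Gbp2 on chromosome 3 that belongs to the same family under another name, was at 4.87, 3.66 and 1.96 CPM in AAV-GFP-MBNL1∆ muscle, at 23.8, 129 and 5.71 CPM in AAV-GFP muscle, and at 0.534, 0.681 and 0.832 CPM in saline muscle. Its AAV-GFP-MBNL1∆ libraries were all above the saline libraries, whereas those of the 6 members overlapped them. The same held for 3 of the 11 listed dynamin-like GTPases, Gbp2b among them, near the 22.7% of all genes. The log2 fold change of Gbp2b was 2.35 ± 1.05 (SE, adjusted p = 0.202, edgeR). Against AAV-GFP it fell by 3.92 on the log2 scale in AAV-GFP-MBNL1∆ muscle. Of the 11 genes of that list, all tested, Gbp2b, Mx1, Mx2 and Gvin1, which interferons induce, and Atl3, which shapes the endoplasmic reticulum, were lower there, and Dnm1l, which divides mitochondria, was higher, 5 and 1 of 11 beside 10.3% of all genes lower and 10.8% higher. No gene of the list was called against saline in either vector group. The share of all genes called was 0.0% in AAV-GFP muscle, and 4.76% higher and 4.6% lower in AAV-GFP-MBNL1∆ muscle.

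Inflammasome and cell death genes act after these proteins have opened a vacuole or a bacterium. Over 12 tested genes their median log2 fold change in AAV-GFP against saline was 2.77, beside -0.01 over all genes. There 0 were called, against 0.0% of all genes. Casp1, Il1b, Naip2, Zbp1 and Gsdmd, 5 of the 12, were lower in AAV-GFP-MBNL1∆ than in AAV-GFP muscle, beside 10.3% of all genes, and the median was -2.14 beside -0.06. Casp1, the protease that matures interleukin-1 beta, was at 2.3 ± 0.624 CPM in AAV-GFP-MBNL1∆ and 11.2 ± 10.5 CPM in AAV-GFP muscle (SD, n = 3 each). Against saline 0 of the 12 were called in AAV-GFP-MBNL1∆ muscle, beside 4.76% of all genes higher and 4.6% lower.

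Prenylation enzymes attach and trim the lipid of Gbp2 and Gbp5. Of 8 prenylation genes tested, 0 were called in AAV-GFP against saline (median log2 fold change -0.05), where 0.0% of all genes were called. In AAV-GFP-MBNL1∆ against saline 0 were called (median 0.07), beside 4.76% of all genes higher and 4.6% lower. In AAV-GFP-MBNL1∆ against AAV-GFP 1 of 8 was called, near the 10.8% of all genes called higher, and the median was 0.13 beside -0.06. It was Rabggtb, which serves Rab proteins, at 51.8 ± 5.14 CPM in AAV-GFP-MBNL1∆ and 41.6 ± 0.744 CPM in AAV-GFP muscle (SD, n = 3 each).

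Of 13 tested genes of the ubiquitin-like conjugation that loads these GTPases onto vacuoles, Map1lc3a and Gabarapl2 were higher and Trim21 and Rnf213 lower in AAV-GFP-MBNL1∆ than in AAV-GFP muscle. These are 2 of 13 in each direction, near the 10.8% of all genes higher and 10.3% lower, and the median was 0.02 beside -0.06. Map1lc3a, which marks autophagosomes, was at 139 to 157 CPM in AAV-GFP-MBNL1∆, 60.1 to 74.0 CPM in AAV-GFP and 66.4 to 75.5 CPM in saline muscle, and was also higher against saline (log2 fold change 1.05 ± 0.10, SE). It was the 1 gene of 13 called in that comparison, beside 4.76% of all genes higher. In AAV-GFP against saline 0 were called, against 0.0% of all genes.

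Of 8 tested neighbours of the clusters, 0 were called in AAV-GFP against saline (0.0% of all genes), where their median log2 fold change was 0.17. In AAV-GFP-MBNL1∆ against AAV-GFP 0 were called, beside 10.8% of all genes higher and 10.3% lower, and the median was -0.15. Kyat3, 63.0 kb past Gbp2, was the 1 of 8 that was lower in AAV-GFP-MBNL1∆ than in saline muscle, beside 4.6% of all genes, at 9.14 ± 0.184 CPM in AAV-GFP-MBNL1∆ and 14.6 ± 2.24 CPM in saline muscle (SD, n = 3 each). Lrrc8b and Lrrc8d, 69.3 and 353 kb past Gbp11, had log2 fold changes of 0.55 and 0.52 in AAV-GFP against saline, beside 3.24 for Gbp11.

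Psmb9, B2m, H2-K1 and Tap1 were among the 5 genes whose pattern over the 9 libraries was most like the mean of the 6 members. Likeness was the root mean square difference in log2(CPM + 1) from the saline mean, over 12203 protein-coding genes, and it was 0.126 for Psmb9, an immunoproteasome subunit, 0.15 for B2m and 0.197 for H2-K1, which form MHC class I, and 0.207 for Tap1, a peptide transporter. The median gene had 1.63. Among the members themselves, Gbp2 was closest to the mean (0.142) and Gbp11 farthest (0.439), which is a description since each is part of that mean.

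**Figure D5:**
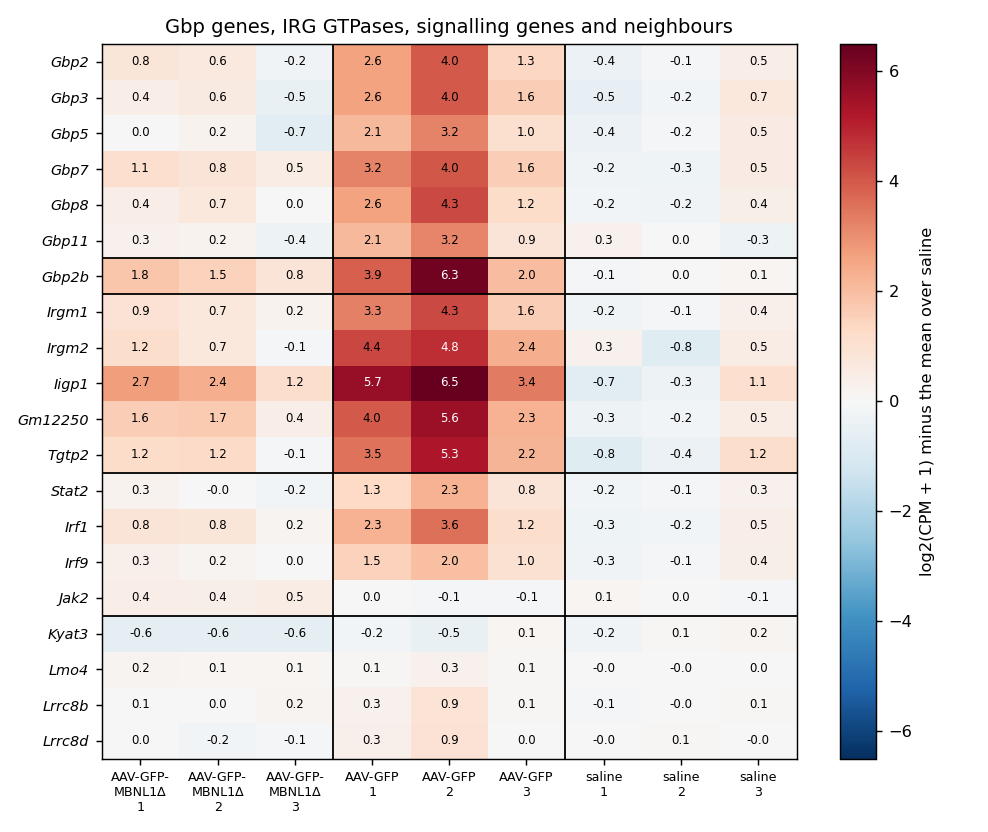
Difference of log2(CPM + 1) from the mean over saline libraries, for each library (columns, AAV-GFP-MBNL1∆ left, AAV-GFP middle, saline right). Rows are the 6 Gbp genes, Gbp2b, IRG GTPases, signalling genes and genes beside the clusters, separated by lines. The Gbp rows, the IRG rows and Irf1 are highest in AAV-GFP replicate 2 and lowest of that group in replicate 3, whereas Jak2 and the neighbours stay closer to 0 there.

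The summed level of each leukocyte marker list was highest in AAV-GFP replicate 2. All 6 macrophage markers had counts in every library, and their sum was 140, 108 and 91.3 CPM in AAV-GFP-MBNL1∆ muscle, 242, 1020 and 119 CPM in AAV-GFP muscle, and 53.3, 51.5 and 69.2 CPM in saline muscle. T cell markers summed to 9.49, 11.3 and 4.43 CPM in AAV-GFP-MBNL1∆ muscle, 24.1, 64.2 and 4.56 CPM in AAV-GFP muscle, and 0.664, 0.485 and 0.572 CPM in saline muscle. In AAV-GFP muscle both sums followed the library order of the Gbp genes. Between AAV-GFP-MBNL1∆ and saline muscle both sums separated the groups, whereas the 6 measured members overlapped and Gbp2b did not. Of the macrophage markers, 4 of 6 were higher there without overlap, beside 22.7% of all genes, and Cd68 and Cd14 overlapped. All 6 T cell markers were higher without overlap. B cell markers summed to between 1.80 and 6.47 CPM in AAV-GFP-MBNL1∆, 1.06 and 36.6 CPM in AAV-GFP and 0.121 and 0.481 CPM in saline muscle. Natural killer cell markers summed to 1.36 to 3.55 CPM in AAV-GFP-MBNL1∆, 2.66 to 30.9 CPM in AAV-GFP and 0.182 to 0.375 CPM in saline muscle. Dendritic cell markers lay at 16.0 to 20.9 CPM in AAV-GFP-MBNL1∆, 18.1 to 46.4 CPM in AAV-GFP and 11.8 to 14.9 CPM in saline muscle. Most of the dendritic sum in every library but AAV-GFP replicate 2 was Zbtb46. It was at 17.0, 11.8 and 14.8 CPM in AAV-GFP-MBNL1∆ muscle, 13.7, 12.5 and 13.0 CPM in AAV-GFP muscle, and 12.0, 10.5 and 13.5 CPM in saline muscle, which overlap. Neutrophil markers, of which Ly6g and Mpo were too low to be tested, lay at 0.255 to 1.11 CPM in AAV-GFP-MBNL1∆, 0.266 to 2.37 CPM in AAV-GFP and 0.0433 to 0.182 CPM in saline muscle.

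Muscle fibre markers, 6 of 6 with counts, summed to 113000 to 133000 CPM in AAV-GFP-MBNL1∆, 63300 to 107000 CPM in AAV-GFP and 110000 to 137000 CPM in saline muscle, with AAV-GFP replicate 2 lowest. Endothelial markers lay at 244 to 304 CPM in AAV-GFP-MBNL1∆, 230 to 327 CPM in AAV-GFP and 342 to 373 CPM in saline muscle, and fibroblast markers at 1310 to 1570 CPM in AAV-GFP-MBNL1∆, 1180 to 2230 CPM in AAV-GFP and 1060 to 1260 CPM in saline muscle. The part of these cells in the Gbp levels was not tested.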

How the data were processed

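The deposited values are counts of reads per gene, 1 table for each library. Per the labels' protocols, mRNA libraries were made from 250 ng of Trizol-extracted RNA. Per the submitters' processing notes, the authors used cutadapt 2.10, STAR 2.7.5a, HTSeq 0.12.4 and DESeq2 1.30.0, with the build mm10 (GRCm38). For HTSeq, the annotation release, feature type and strand option were not given in the sources used here. Library sizes leave out 5 rows that name no gene, with 16.8% to 18.3% of reads. Libraries held 44603618 to 76970849 counts in genes.

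Names, coordinates and exon lengths came from GENCODE M21 by identifier without version (55141 of 55401 matched). All 9 libraries were fitted together in edgeR 4.0.16 (R 4.3.3): TMM scaling, filterByExpr, robust quasi-likelihood F test, 1 mean per group, 6 residual degrees of freedom, biological coefficient of variation 0.232. P-values were adjusted by Benjamini-Hochberg over the genes tested in each of 3 comparisons, with 0.05 as the threshold, and an adjusted p is edgeR's unless another tool is named. The SE is the size of the log2 fold change over the square root of F. The procedure was tested on simulated counts with the same spread for all genes and groups, so groups of unequal spread were not simulated. The members, gene lists and markers were chosen with earlier results of these data known. The rule for naming genes takes every member, every tested gene of lists of up to 6, the 3 genes with the smallest p in either comparison with AAV-GFP from longer lists, genes that complete a count of 5 or fewer, and the 5 most alike genes. Irf1, Socs1, Socs3, Nlrc5, Ifng, Ifngr1 and the genes at 0 that are no members were named outside it, after their values were seen.

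The alternatives were DESeq2 1.42.0, its size factors, upper-quartile scaling, limma-voom of limma 3.58.1 with and without library weights, other filters, a fit that is not robust, the compared groups alone, a replicate block, a table without mitochondrial genes and the 10 genes of highest abundance, and fits without each library in turn. No protein sequences were used here. The values of 1 gene that the rule would name are not reported here.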

Additional observations from a re-analysis of the deposited data

Results flagged for a closer look

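Reads that overlap more than 1 gene are set aside in a row of their own and enter no Gbp level. Their share was 2.15% to 2.27% of reads in AAV-GFP-MBNL1∆ libraries, 2.19% to 3.65% in AAV-GFP libraries and 2.11% to 2.15% in saline libraries, so that every AAV-GFP library stood above every saline library in data that the comparisons do not use. The highest value, 3.65%, was that of AAV-GFP replicate 2, which was also the library with the highest level of each of the 6 measured Gbp genes. Which genes these reads came from was not tested, since the row does not name them.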

How the results depend on the processing

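The numbers of Gbp genes called depended on the fit. For AAV-GFP against saline, 6 were called by DESeq2 and by limma-voom with library weights (1705 and 5464 of all genes) and 1, Gbp11, with the replicate block (99 of all genes), against 0 of all genes in edgeR. Leaving out 1 library gave 0 to 6 Gbp genes and 0 to 3262 of all genes, with 6 only without AAV-GFP replicate 3. For AAV-GFP-MBNL1∆ against AAV-GFP, 0 were called with no filter (2746 of all genes) or with the compared groups alone (1159 of all genes). Limma-voom called 5 (all but Gbp8), and 0 to 6 were called when 1 library was left out. All genes called there numbered 3914, 9294 with library weights and 826 to 6649 without 1 library. For AAV-GFP-MBNL1∆ against saline, 0 Gbp genes were called in every setting run, while all genes called numbered 1734, 2888 by DESeq2, 5458 with library weights, 4584 with the compared groups alone and 500 to 4047 without 1 library. Small values in that comparison changed sign: Gbp11 had a log2 fold change of -0.34 with library weights and -0.21 to 0.47 without 1 library, Gbp3 -0.10 to 0.66 and Gbp5 -0.38 to 0.19. The cause was not tested. In the other comparisons no Gbp gene changed direction in any setting run. The level of Gbp5 in AAV-GFP muscle was 11.2 CPM per kb of its longest transcript, against 6.31 per kb of all exon bases. The labels do not say whether replicate numbers pair the samples. Of the same-numbered pairs, 2 of 9 had deviations correlated above 0.1 (-0.0824 to 0.446). Differently numbered pairs had -0.435 to 0.278, and these overlapping ranges cannot decide whether the numbers pair samples. Under the block 6 and 0 Gbp genes were called in the comparisons of AAV-GFP-MBNL1∆ with AAV-GFP and saline. With SEs of 0.54 to 0.71 on the log2 scale against saline in the fit of all 9 libraries, small changes in AAV-GFP-MBNL1∆ muscle were not detectable. The lowest member, Gbp11, had 30 to 1246 counts a library.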
